A study of Homo sapiens with 6 samples.

Results

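The comparison described here is the transient knock-down of HOTAIRM1 in U251 cells, which comprises 2 of the 6 RNA sequencing libraries of the study, chosen by the cell line given in the sample labels. U251 is an established glioblastoma cell line. One library came from cells transfected with non-target siPOOLs (siControl) and the other from cells transfected with HOTAIRM1-specific siPOOLs (siHOTAIRM1), each being a pool of siRNAs delivered with a lipid reagent. RNA was collected 72 h after transfection, and the same pair of libraries exists for LN-229 and T98G cells, which are also glioblastoma lines. With 1 library per condition there was no replicate within U251, so no test was possible, and each difference below is a difference between these 2 libraries.

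HOTAIRM1 is a long noncoding RNA (lncRNA) transcribed from the HOXA gene cluster, known for its induction during myeloid differentiation and its high level in many glioblastomas. siRNAs act by guiding Argonaute proteins to complementary RNA. Glioblastoma cells often rely on glycolysis, and low oxygen stabilizes the HIF transcription factors, which switch on genes for glucose uptake, blood vessel growth and pH control.

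The targeted gene (ENSG00000233429, chr7:27095647-27100265 on hg38) was low in U251. Levels are given in CPM, the reads of a gene scaled to the reads of its library. The siControl library held 1.27 CPM of it, from 67 reads, with 95% Wilson bounds of 1.01 and 1.63. The siHOTAIRM1 library held 0.623 CPM, from 63 reads, with bounds of 0.487 and 0.796. The level after knock-down was 51.1% lower, with a counting interval of 31 to 65.4%. The intervals cover counting error only. On the centred scale defined below, which understates changes of low genes, the change was -0.44, beside -0.63 in LN-229 and -0.31 in T98G. The paper reports a larger reduction in U251MG cells by RT-qPCR, a different measure. Of 18 genes listed for the HOXA cluster, 8 were under 3 reads in both U251 libraries and none reached a mean of 1 CPM. HOXA5 measured 0.689 CPM in siControl and 1.29 CPM in siHOTAIRM1. TGM2, the transglutaminase studied further by the authors, had 1 read in the siControl library and 0 in the siHOTAIRM1 library, and MEOX2 had 0 in both. Among glioma markers, U251 carried VIM at 1794 and 1309 CPM, CD44 at 819 and 572 CPM, SOX2 at 91.4 and 117 CPM and GFAP at 42.5 and 20.7 CPM, while OLIG2 and CHI3L1 had at most 3 reads. In bulk RNA, fewer cells with a marker and less of its RNA per cell cannot be told apart. Of 30 markers of other cell types, 12 were under 3 reads in both libraries and 6 reached a mean of 1 CPM. Their summed level was 113 CPM in siControl and 122 CPM in siHOTAIRM1, most of it CNP, an oligodendrocyte marker, at 87.2 and 101 CPM. Endothelial markers summed to 11.5 and 6.32 CPM, epithelial markers to 5.26 and 3.69 CPM and immune markers to 1.23 and 0.581 CPM. Neuron markers summed to 3.22 and 4.27 CPM.

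The siControl library of U251 stood apart from the other 5 in its small RNA. Small and other non-polyadenylated RNAs (the lists of 7SL, 7SK, small nuclear and small nucleolar RNAs, 5S and 5.8S rRNA and replication-dependent histone mRNAs) made up 20.8% of the CPM summed over listed genes there, against 13.1% in the U251 siHOTAIRM1 library. The share was 12.2 and 13.6% in LN-229 and 11.1 and 10.3% in T98G. The U251 siControl library also had the lowest depth, as worked out from the spacing of low CPM values. It was 52.2 M reads, against 101 M in U251 siHOTAIRM1 and 69.1 to 104 M in the other lines. In reads on listed genes it held 35.1 M, above T98G (34.7 and 31.2 M). It was below LN-229 (41.5 and 50.4 M) and U251 siHOTAIRM1 (56.6 M). Whether the small RNA share or the depth has a part in the differences below was not tested, since within U251 they cannot be told apart from the condition.

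**Figure D1:**
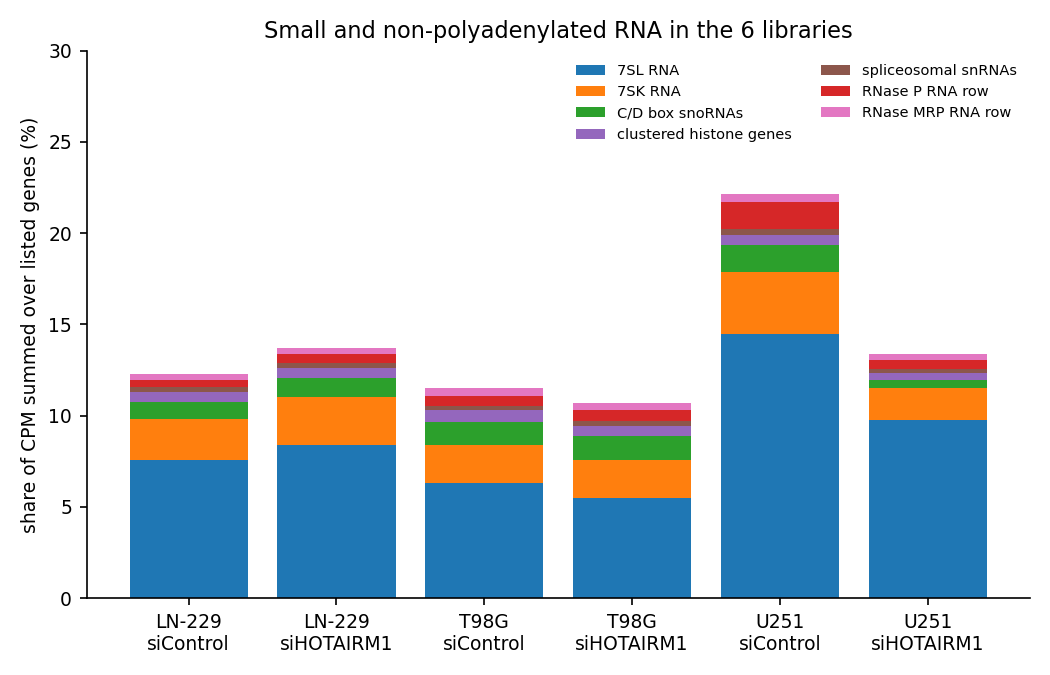
Share of the CPM summed over listed genes (%, y axis) taken by 7 classes of small or non-polyadenylated RNA, stacked, in each of the 6 libraries (x axis). The U251 siControl bar is the tallest, mainly through 7SL RNA at 14.5% and 7SK RNA at 3.36%.

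7SL RNA, the scaffold of the signal recognition particle, was the most abundant of these. Its copies RN7SL1 and RN7SL2 summed to 97460 CPM in U251 siControl and 54479 CPM in U251 siHOTAIRM1. The copies are near-identical, so the division of reads between them is uncertain.

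RN7SL1 measured 60589 CPM in siControl and 27894 CPM in siHOTAIRM1, and RN7SL2 measured 36870 and 26585 CPM. RN7SK, which holds the elongation factor P-TEFb inactive, measured 22596 and 9860 CPM. The U3 small nucleolar RNAs, which act in the first cleavages of pre-rRNA, were among them, with SNORD3A at 7115 CPM in siControl and 1609 CPM in siHOTAIRM1 and SNORD3B-2 at 1577 and 319 CPM. SNORD3D measured 494 and 294 CPM. RMRP, the RNA of RNase MRP, measured 1432 and 853 CPM, and the U2 spliceosomal RNA RNU2-1 measured 899 and 502 CPM. A separate row for the RNA of nuclear RNase P, outside these lists, held 10159 CPM in siControl and 2823 CPM in siHOTAIRM1, against 1743 to 2807 CPM in the libraries of the other lines. The siControl value was thus the high one for that row, and the siHOTAIRM1 value lay close to the other lines. The 8 small RNAs named from these lists were those with the highest CPM in U251 siControl. All 8 were lower in siHOTAIRM1, a direction that this choice favours. RNA5-8S5, a 5.8S rRNA, went the other way, at 224 CPM in siControl and 418 CPM in siHOTAIRM1, and was also higher in siHOTAIRM1 in LN-229 and T98G.

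To compare genes, log2(CPM + 1) of siControl was subtracted from that of siHOTAIRM1, and the median of this difference over genes averaging 1 CPM or more in the 2 libraries was taken off (centred change). In U251 13371 genes passed this minimum. Of these, 88 were at or over 1, which is 0.658% of them, and 182 at or under -1, which is 1.36%. At the smaller threshold, 1177 genes (8.8%) were at or over 0.5 and 1439 (10.8%) at or under -0.5. The same counts in LN-229 were 200 genes at or over 0.5 (1.45%) and 168 at or under -0.5 (1.22%) of 13794, and in T98G 363 (2.65%) and 257 (1.88%) of 13678. More genes thus lay past 0.5 in U251 than in either other line, and this difference has no test.

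**Figure D2:**
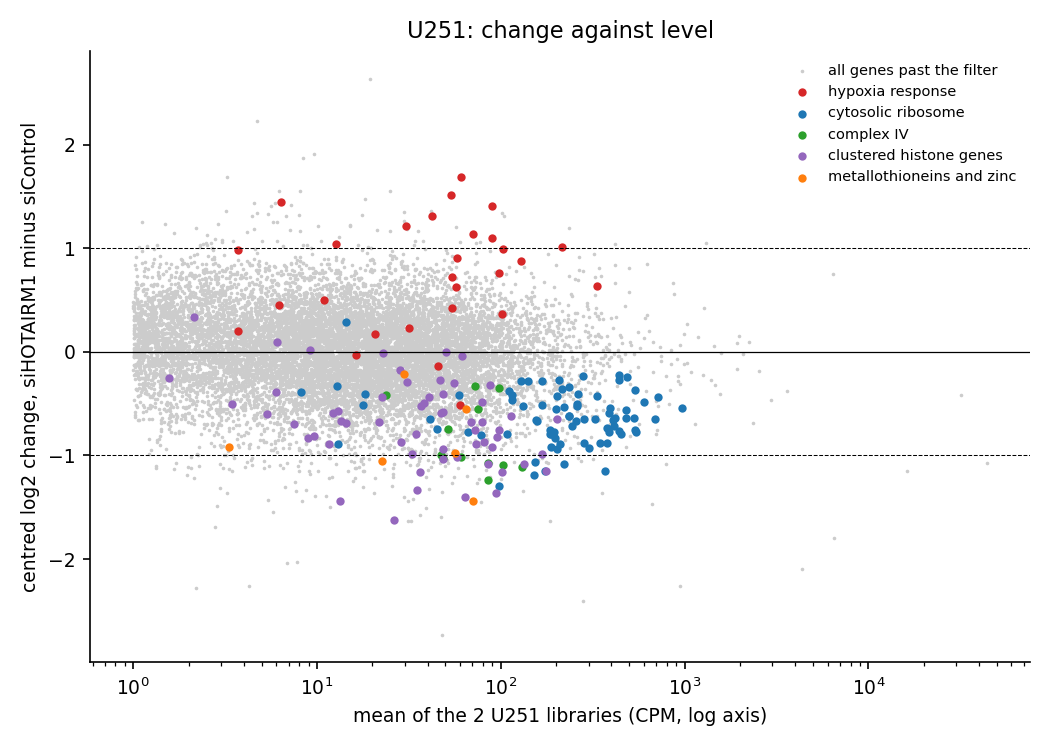
Centred log2 change between the 2 U251 libraries (y axis) against their mean level in CPM (x axis, log axis) for each gene past the minimum, with 5 gene lists in colour. Hypoxia response genes lie mostly above 0, and ribosomal protein, complex IV, histone and metallothionein genes mostly below.

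The changes in U251 followed transcript length. Over 12187 genes other than the small RNAs, the Spearman correlation across genes between change and the longest annotated transcript was 0.317 in U251, 0.243 in T98G and -0.013 in LN-229. Genes share library and depth and are not independent replicates, so these are descriptions. In the shortest of 5 equal classes (103 to 2045 bases) the median change was -0.23 and 23% of genes were at or under -0.5. In the longest class (6314 bases and over) the median was 0.14 and 12.5% of genes were at or over 0.5. The part of length in the results on short transcripts was not tested. With the trend removed, the median of the 7SL pair RN7SL1 and RN7SL2 moved from -0.75 to -0.31. Values of this alternative are given beside many of the lists named below. The longest annotated transcript can differ from the one present in the cells, so the alternative may not remove all of a length trend.

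**Figure D3:**
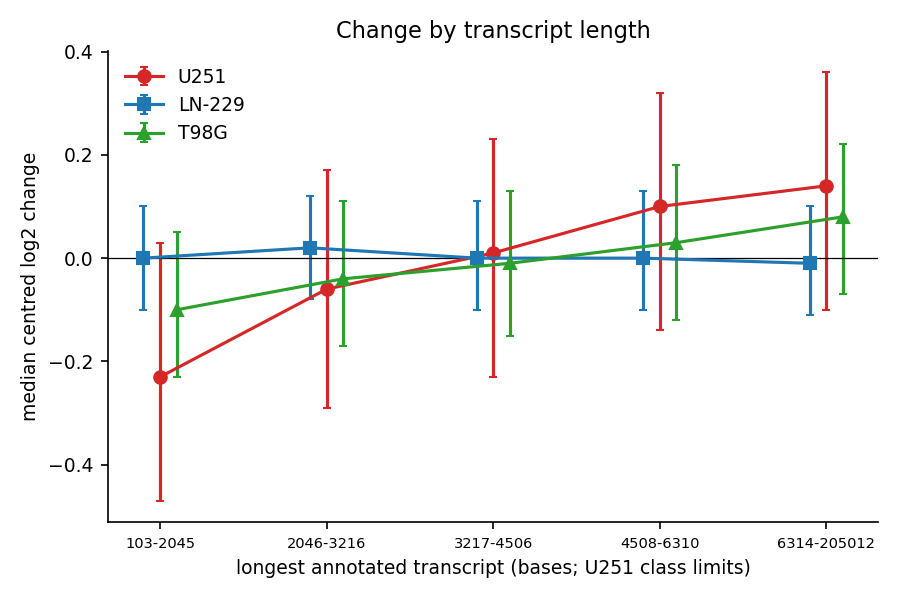
Median centred log2 change (y axis) in 5 classes of the longest annotated transcript in bases (x axis, limits of the U251 classes), for each line, with bars from the lower to the upper quartile of genes. The U251 medians go from -0.23 to 0.14, while those of LN-229 stay within 0.02 of 0.

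Genes of the hypoxia response were higher in the siHOTAIRM1 library of U251. Of 30 genes listed, 28 passed the minimum, of which 18 were at or over 0.5 (64.3%, beside 8.8% of all genes) and 1 at or under -0.5. The median was 0.82 in U251, 0.02 in LN-229 and -0.02 in T98G. CA9, a carbonic anhydrase at the cell surface that serves as a marker of low oxygen, measured 29.1 CPM in siControl and 92.8 CPM in siHOTAIRM1, a change of 1.69. VEGFA, the main growth factor for blood vessels, measured 49.9 and 130 CPM (1.41). VEGFA went the other way in LN-229 (-0.16) and T98G (-0.46). NDRG1, a stress-responsive gene, measured 28.1 and 79.5 CPM (1.52). LOX, which crosslinks collagen, measured 3.06 and 9.74 CPM (1.45), and PLOD1, a collagen lysyl hydroxylase, 145 and 284 CPM (1.01). PDK1, the kinase that restrains pyruvate dehydrogenase, measured 44.8 and 96.9 CPM (1.14), and ADM, the vasodilator adrenomedullin, 8.19 and 17.3 CPM (1.04). EGLN1, an oxygen-sensing prolyl hydroxylase that marks HIF for degradation, measured 40.8 and 75 CPM (0.91). BNIP3 and BNIP3L, receptors for the removal of mitochondria, had changes of 0.88 and 0.76. The member at or under -0.5 was CA12, another carbonic anhydrase, at 71.4 CPM in siControl and 48.3 CPM in siHOTAIRM1 (-0.51), which was also lower in LN-229 (-0.59) and T98G (-0.71).

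Of 24 glycolysis genes listed, 23 passed the minimum, 10 were at or over 0.5 (beside 8.8% of all genes) and 1 at or under -0.5 (beside 10.8%), with a median of 0.29 in U251, 0.03 in LN-229 and -0.16 in T98G. HK2, the hexokinase induced in tumours, measured 12.5 CPM in siControl and 37.3 CPM in siHOTAIRM1 (1.55). ENO2, an enolase, measured 17.4 and 41.8 CPM (1.26), and the glucose transporters SLC2A3 and SLC2A1 had changes of 0.98 and 0.51. PFKFB3 and PFKFB4, which make the activator of phosphofructokinase, had changes of 0.76 and 0.77. PGK1, used by the authors as a housekeeping control in RT-qPCR, measured 679 and 1043 CPM (0.67), with 0.09 in LN-229 and -0.18 in T98G. Several of the most abundant enzymes lay near 0, among them GAPDH at 2192 and 2278 CPM (0.10), ENO1 at 1904 and 1960 CPM (0.09) and PKM at 2120 and 2020 CPM (-0.02). LDHB, a lactate dehydrogenase subunit, measured 385 and 242 CPM (-0.62).

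**Figure D4:**
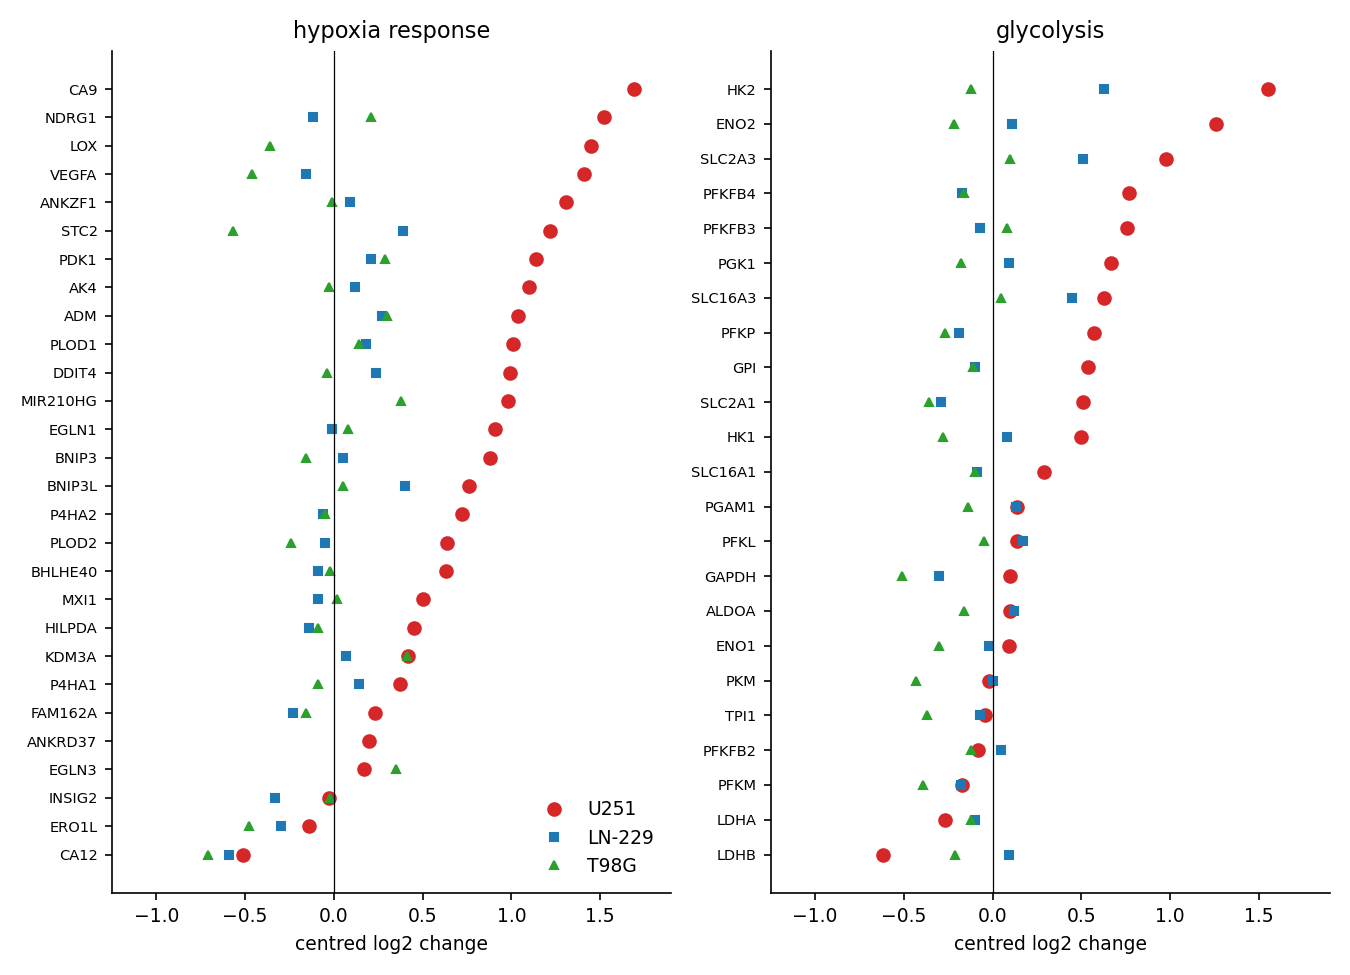
Centred log2 change (x axis) of each hypoxia response gene (left) and glycolysis gene (right) past the U251 minimum, in U251 and, where past that line's own minimum, in LN-229 and T98G. U251 points reach 1.69 for CA9 and 1.55 for HK2, and most points of the other lines lie near 0.

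The promoters of 3 of these genes are shown for the core letters of the hypoxia response element, ACGTG or GCGTG on either strand, marked by capitals (overlaps with CACGTG included). Each is the 250 bases before the RefSeq start on GRCh38.p14, 5' to 3' on the strand of the gene.
CA9 (chr9:35673678-35673927, plus strand): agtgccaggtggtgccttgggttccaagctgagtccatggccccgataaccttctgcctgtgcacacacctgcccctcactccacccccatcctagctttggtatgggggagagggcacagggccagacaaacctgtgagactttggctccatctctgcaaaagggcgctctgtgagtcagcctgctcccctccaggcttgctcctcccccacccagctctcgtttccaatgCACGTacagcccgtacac
HK2 (chr2:74833877-74834126, plus strand): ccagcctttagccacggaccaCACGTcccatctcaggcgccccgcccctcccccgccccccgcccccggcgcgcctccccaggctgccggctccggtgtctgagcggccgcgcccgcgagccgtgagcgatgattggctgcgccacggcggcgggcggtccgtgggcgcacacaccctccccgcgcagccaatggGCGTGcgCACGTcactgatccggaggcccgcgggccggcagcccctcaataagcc
LOX (chr5:122078260-122078509, minus strand): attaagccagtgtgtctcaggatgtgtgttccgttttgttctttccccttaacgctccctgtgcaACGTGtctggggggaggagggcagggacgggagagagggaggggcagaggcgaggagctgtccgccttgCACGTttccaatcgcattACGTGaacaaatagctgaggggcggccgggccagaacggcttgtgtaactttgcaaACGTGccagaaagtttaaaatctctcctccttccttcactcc

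The CA9 stretch holds 1 run of these letters, 18 bases before the start, HK2 holds 3 runs and LOX 4 runs. Over windows that also include 50 bases after the start, 22 of 25 hypoxia response genes with a window (88%) and 20 of 21 glycolysis genes (95.2%) held either word, against 52.4% of all 27305 genes. The full word CACGTG was in 16% of the hypoxia response genes, 28.6% of the glycolysis genes and 8.77% of all genes. A match describes the letters and is not evidence of binding.

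Genes for the cytosolic ribosome were lower in siHOTAIRM1. All 79 listed genes passed the minimum, 54 were at or under -0.5 (68.4%, beside 10.8% of all genes) and none was at or over 0.5. The median was -0.64 in U251, 0.07 in LN-229 and -0.20 in T98G, and their summed level was 26153 CPM in siControl and 16442 CPM in siHOTAIRM1. RPS29, of the small subunit, measured 140 and 54.8 CPM (-1.29), and RPS3A measured 213 and 89.9 CPM (-1.19). In the large subunit, RPL31 measured 517 and 225 CPM (-1.15), RPL39 244 and 106 CPM (-1.15) and RPL35 303 and 138 CPM (-1.08). RPL36A, at 0.29, was the one member above 0. With the length trend removed, the median was -0.49 and 39 genes were at or under -0.5. That trend used the longest annotated transcript, with a median of 1915 bases over these genes and 7062 bases for RPS29. The lengths of the transcripts present were not measured, so a part of length in the remaining change was not tested. Other parts of the translation machinery did not share this level of change. Translation factors had a median of -0.11, with 6 of 51 at or under -0.5 (11.8%), a share near the 10.8% of all genes. The lowest was the initiation factor subunit EIF3E at 227 and 107 CPM (-1.02). Ribosome biogenesis factors had a median of 0.03 and cytosolic aminoacyl-tRNA synthetases of -0.06.

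Ribosomal protein mRNAs begin with a C followed by a run of pyrimidines (the TOP motif), through which their translation is controlled. The first 20 bases from the RefSeq start are shown for 6 of the members with the largest falls, with the start C and the C or T run after it in capitals where at least 4 follow.
RPS29 (chr14:49598691-49598710, minus strand): tggcagcggtggttgtttct
RPS3A (chr4:151099628-151099647, plus strand): CCCTTTTggctctctgacca
RPL31 (chr2:101002289-101002308, plus strand): CTTCCTTTCCaacttggacg
RPL35 (chr9:124861938-124861957, minus strand): CTCTTTCCCTCggagcgggc
RPL34 (chr4:108620576-108620595, plus strand): CCTCTTCCggggacgttgtc
RPS12 (chr6:132814569-132814588, plus strand): CTCTTTCCCTgccgccgccg

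Of these, the annotated start of RPS29 alone does not open with such a run. It was found in 47 of 63 cytosolic ribosome genes with a window (74.6%), 26.8% of translation factors, 30% of complex IV genes and 5.14% of all genes.

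Nuclear genes for the respiratory chain were also lower in siHOTAIRM1, to a different degree by complex. Complex IV, which passes electrons to oxygen, had the lowest median at -1.01, with 9 of 12 members at or under -0.5, against 10.8% of all genes and 23% of the shortest length class. Its median was -0.02 in LN-229 and -0.26 in T98G. COX7A2 measured 122 CPM in siControl and 49.3 CPM in siHOTAIRM1 (-1.24), COX7C 180 and 80.3 CPM (-1.11) and COX7B 142 and 63.9 CPM (-1.09), whereas COX4I1 measured 111 and 84.1 CPM (-0.35). With the length trend removed the median of complex IV was -0.70 and 8 members were at or under -0.5. Complex V, the ATP synthase, had a median of -0.61 with 10 of 16 at or under -0.5, and its gamma subunit ATP5C1 measured 116 and 50.4 CPM (-1.14). Removing the length trend left a median of -0.45 and 7 members at or under -0.5. Complex I, which oxidizes NADH, had a median of -0.52 with 21 of 37 at or under -0.5, or -0.38 and 16 without the length trend. NDUFB6 measured 67 and 27.7 CPM (-1.20) and NDUFB3 44.6 and 19.8 CPM (-1.09). Complex III had a median of -0.43, or -0.27 without the length trend, with UQCR11 at 58.3 and 25.5 CPM (-1.11). In complex II, SDHD and SDHB had changes of -0.74 and -0.64 and the catalytic subunit SDHA of 0.07. None of the members of these complexes was at or over 0.5, and none was past 0.5 in either direction in LN-229 or T98G. The mitochondrial ribosome had a median of -0.40 with 30 of 78 at or under -0.5 (beside 10.8% of all genes), of which MRPL13 measured 50.1 and 21.3 CPM (-1.15). Without the length trend its median was -0.26 and 16 of 78 were at or under -0.5. Mitochondrial import had a median of -0.20, led by TOMM5 at 218 and 102 CPM (-1.04), and the TCA cycle enzymes had a median of -0.05. The 37 genes of mitochondrial DNA in the table were listed without reads in both U251 libraries, so the subunits they encode were not measured.

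**Figure D5:**
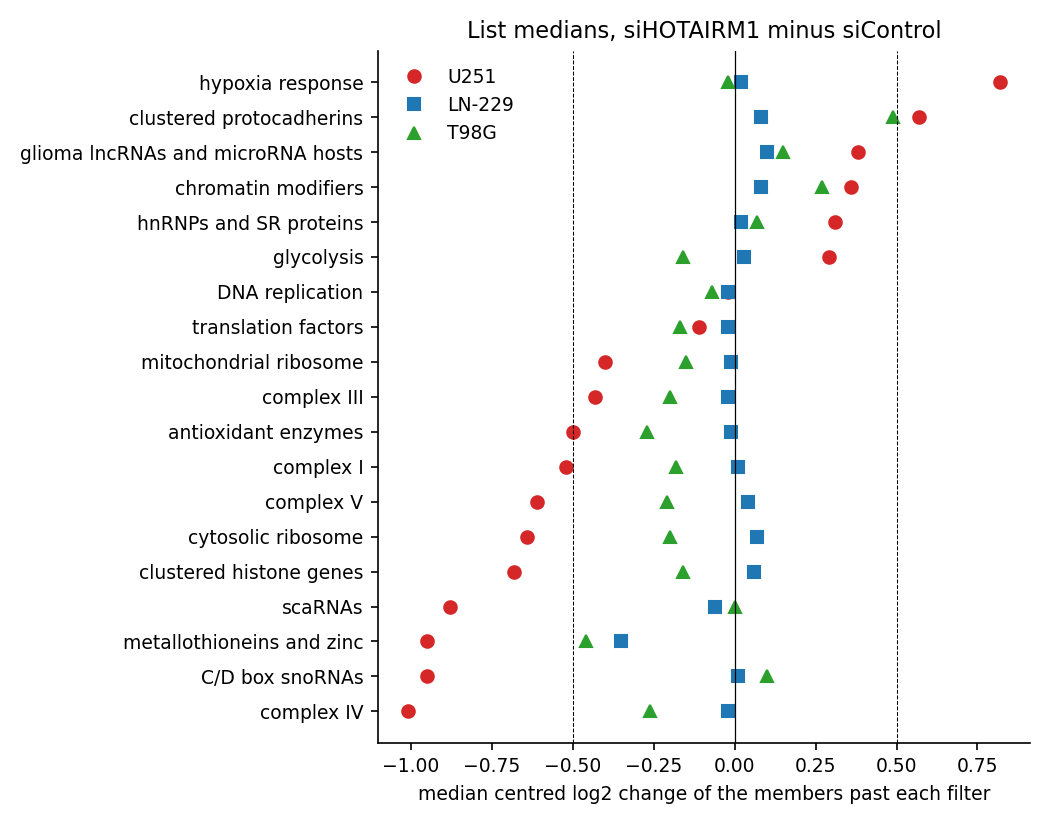
Median centred log2 change (x axis) of 19 gene lists (y axis) in U251, LN-229 and T98G, over the members past each line's minimum, with dashed lines at -0.5 and 0.5. The U251 medians run from -1.01 for complex IV to 0.82 for the hypoxia response.

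Metallothioneins, small cysteine-rich proteins that bind zinc and copper, were lower. With related zinc genes, 13 were listed, 6 passed the minimum and 6 were under 3 reads in both libraries, and 5 of the 6 past the minimum were at or under -0.5, beside 10.8% of all genes. The median was -0.95 in U251, -0.35 in LN-229 and -0.46 in T98G. MT1E measured 105 CPM in siControl and 37 CPM in siHOTAIRM1 (-1.44), MT1X 31 and 14 CPM (-1.05), MT2A 78.4 and 51.3 CPM (-0.55), and the zinc exporter SLC30A1 75.6 and 36.5 CPM (-0.98). MTF1, the zinc-sensing factor that drives these genes, measured 32.6 and 27 CPM (-0.21). MT1E was lower in LN-229 (-0.61) and T98G (-0.87) as well. The promoter of MT2A is shown for the core of the metal response element, in capitals (the word TGCACTC, the word TGCGCTC, the word TGCACAC or the word TGCGCAC, on either strand), which 3 of 4 metallothionein genes with a window and 17% of all genes held.
MT2A (chr16:56608334-56608583, plus strand): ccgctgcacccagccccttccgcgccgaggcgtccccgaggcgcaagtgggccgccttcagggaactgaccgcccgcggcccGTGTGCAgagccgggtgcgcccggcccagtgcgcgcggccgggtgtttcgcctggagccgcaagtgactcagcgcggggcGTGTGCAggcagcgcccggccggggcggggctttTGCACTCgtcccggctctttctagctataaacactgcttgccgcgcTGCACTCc

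Antioxidant enzymes had a median of -0.50, with 9 of 17 at or under -0.5 (beside 10.8% of all genes) and none at or over 0.5. Without the length trend the median was -0.36 and 5 of 17 were at or under -0.5. GPX1, a glutathione peroxidase, measured 79.3 CPM in siControl and 32.5 CPM in siHOTAIRM1 (-1.21), and the mitochondrial peroxiredoxin PRDX3 measured 167 and 93.9 CPM (-0.78). A separate list of NRF2 targets had a median of -0.15. Of its 20 members past the minimum, 2 were at or under -0.5 (beside 10.8% of all genes) and 2 at or over 0.5 (beside 8.8%). Its lowest member was TXN, the thioredoxin that reduces peroxiredoxins, at 106 and 41.7 CPM (-1.27). TXNIP, the alpha-arrestin that binds thioredoxin and limits glucose uptake, measured 4.84 and 34.2 CPM. Its change of 2.64 was the largest rise among all genes past the minimum, with 1.69 in LN-229 and 0.84 in T98G. ARRDC3, of the same family, measured 49.3 and 82.3 CPM (0.77).

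Replication-dependent histone genes, whose mRNAs end in a stem-loop in place of a poly(A) tail, were lower. Of 88 listed, 59 passed the minimum and 20 were under 3 reads in both libraries, and 40 of the 59 were at or under -0.5 (beside 10.8% of all genes) with none at or over 0.5. The median was -0.68 in U251, 0.06 in LN-229 and -0.16 in T98G. HIST1H2AB measured 40.3 CPM in siControl and 12 CPM in siHOTAIRM1 (-1.62), HIST1H3F 94 and 33.8 CPM (-1.40) and HIST1H3G 138 and 51.3 CPM (-1.36). Histone genes of a family are near-identical, so the division of reads among them is uncertain. With the length trend removed the median was -0.40 and 19 of 54 were at or under -0.5. DNA replication genes had a median of -0.02, with 2 of 39 at or over 0.5 (beside 8.8% of all genes) and 1 at or under -0.5 (beside 10.8%). Mitosis genes had a median of -0.14, with 9 of 39 at or under -0.5 (beside 10.8%) and 1 at or over 0.5 (beside 8.8%). The latter was MKI67, the Ki-67 proliferation antigen, at 254 and 432 CPM (0.81), while HMMR measured 63.9 and 36.3 CPM (-0.75).

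NEAT1, the scaffold of paraspeckles, measured 867 CPM in siControl and 1742 CPM in siHOTAIRM1 (1.05), and MALAT1, of nuclear speckles, 4907 and 7963 CPM (0.75). Both were also higher in LN-229 (0.38 and 0.46) and T98G (0.37 and 0.59). Of 36 chromatin modifiers, 11 were at or over 0.5 (beside 8.8% of all genes) and none at or under -0.5, with a median of 0.36. Without the length trend the count was 7 and the median 0.23. TET1 and TET3, which oxidize methylcytosine, measured 22.3 and 45.1 CPM (1.03) and 18.1 and 34.2 CPM (0.93), and DNMT3A, a DNA methyltransferase, 18 and 31.5 CPM (0.82). Among hnRNPs and SR proteins, which bind pre-mRNA, 9 of 37 were at or over 0.5 (beside 8.8% of all genes) with a median of 0.31. Without the length trend these were 8 and 0.26. PNN had the largest change, at 53.1 and 94.8 CPM (0.87). The small RNA silencing machinery had a median of 0.29, or 0.13 without the length trend, and 2 of its 16 members were at or over 0.5, a share near the background of 8.8%. These were DICER1, the nuclease that makes microRNAs, at 48.4 and 97.9 CPM (1.05) and AGO2, the Argonaute that cleaves the target, at 50.7 and 96.5 CPM (0.96). PRKRA, a partner of Dicer, had a change of -0.44. Clustered protocadherins, adhesion proteins, had a median of 0.57, with 12 of the 19 past the minimum, of 57 listed, at or over 0.5 (beside 8.8% of all genes). This rested on the settings: the median was 0.10 with no filter and 0.86 with a pseudocount of 0.1, 8 of 19 were at or over 0.5 without the length trend, and only 2 passed a 5 CPM minimum, neither at or over 0.5 (median 0.26). They were low, the highest change being PCDHGC5 at 1.24 and 3.2 CPM (0.95), and their median was 0.49 in T98G. Many of them share 3' exons, so the division of reads among those is uncertain.

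The list of collagens, laminins and matrix proteins had a median of 0.07. Of its 29 members past the minimum, 7 were at or over 0.5 (beside 8.8% of all genes) and none at or under -0.5. The largest rise was COL11A1, a fibrillar collagen, at 145 CPM in siControl and 322 CPM in siHOTAIRM1 (1.20). TNC, the glioma matrix protein tenascin C, measured 457 and 798 CPM (0.85). The TGF-beta and BMP response list had a median of 0.11. Of its 23 members past the minimum, 6 were at or under -0.5 (beside 10.8% of all genes) and 2 at or over 0.5 (beside 8.8%). The lower members included the BMP-responsive ID genes, which block basic helix-loop-helix factors. ID2 measured 55.3 and 17.3 CPM (-1.57), ID3 78.8 and 36.9 CPM (-1.03) and ID1 72.8 and 35.2 CPM (-0.98). The NF-kB cytokine list had a median of 0.03, with 4 of 16 at or under -0.5 (beside 10.8% of all genes) and 2 at or over 0.5 (beside 8.8%). Its lowest member was CXCL8, the chemokine interleukin-8, at 13.2 and 2.36 CPM (-2.03), with -1.58 in T98G and -0.06 in LN-229. SNAI2, a mesenchymal transcription factor, measured 8.96 and 4.05 CPM (-0.93). EGFR measured 44.4 and 50.1 CPM (0.22), SEMA3A 265 and 232 CPM (-0.14) and MIR17HG 3.22 and 2.88 CPM (-0.07).

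Annexins and S100 proteins, which bind calcium, had a median of -0.50, or -0.27 without the length trend, with S100A6 at 1088 CPM in siControl and 496 CPM in siHOTAIRM1 (-1.08). The proteasome list had a median of -0.28 with 7 of 31 at or under -0.5 (beside 10.8% of all genes), the lowest being PSMA6 at 101 and 48.7 CPM (-0.98). The CCT chaperonin and prefoldin list had a median of -0.34 with 5 of 14 at or under -0.5 (beside 10.8%). Medians were 0.04 for ER chaperones and the unfolded protein response, -0.04 for heat shock chaperones and -0.05 for p53 targets. The interferon response list had a median of -0.01, with 6 of 37 at or over 0.5 (beside 8.8% of all genes), such as IFI6 (24.4 and 50.6 CPM, 1.07), and 5 at or under -0.5 (beside 10.8%), such as IFIT2 (24 and 10.7 CPM, -1.05).

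Among the 7599 protein-coding and lncRNA genes averaging 10 CPM or more, 37 were at or over 1 and 98 at or under -1. After TXNIP, CA9, HK2 and NDRG1, the largest rises were STK40 (9.42 CPM in siControl and 27.2 CPM in siHOTAIRM1, 1.48), VEGFA, the creatine transporter SLC6A8 (23.6 and 60.2 CPM, 1.36), WBP1L (16.7 and 42.8 CPM, 1.35) and the amino acid transporter SLC7A5 (57.9 and 144 CPM, 1.34). HIPK2, a nuclear kinase, measured 61 and 148 CPM (1.31), with 1.08 in LN-229 and 0.97 in T98G. Of the 15 largest rises, 6 were at or over 0.5 in LN-229 and 5 in T98G, beside 1.45 and 2.65% of all genes there. The largest falls were RAB32, a GTPase (48.1 and 14.4 CPM, -1.63), and MAT2B, the regulatory subunit of methionine adenosyltransferase (50.2 and 15 CPM, -1.63), followed by HIST1H2AB, ID2 and DAZAP2 (58.8 and 19.4 CPM, -1.51). MYLK, the myosin light chain kinase, measured 115 and 40.3 CPM (-1.45), and NT5E, the ectoenzyme CD73, 49.2 and 17.2 CPM (-1.42). Of the 15 largest falls, 5 were at or under -0.5 in LN-229 and 8 in T98G, beside 1.22 and 1.88% of all genes. Those lower in all 3 lines included MAT2B and DAZAP2, with -0.80 and -1.04 in LN-229, and MAT2B was at -0.98 in T98G. They also included NT5E, at -0.62 in LN-229 and -1.41 in T98G, and TERF2IP, at -0.66 and -0.76. The counting half-width of the log2 ratio was 0.05 to 0.18 over these 30 genes, which leaves out the spread between cultures.

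Some genes past 1 in U251 lay within 0.25 of 0 in both other lines. They were 8 of the 37 rises and 33 of the 98 falls. Of all 7599 genes, 67.7% lay within 0.25 of 0 in both other lines. The rises included NDRG1, ANKZF1 (24.6 and 60.2 CPM, 1.31), ENO2, LMCD1 (13 and 29.6 CPM, 1.18) and AK4, a mitochondrial adenylate kinase (57.7 and 121 CPM, 1.10). The falls included HIST1H2AB, RPL22L1 (25.9 and 9.54 CPM, -1.30), NAA38 (37.1 and 14.1 CPM, -1.29), RPS29, TMBIM4 (22.7 and 8.62 CPM, -1.25) and COX7A2. Since each line has 1 library per condition, the difference between lines was not tested for any of them.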

How the data were processed

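RNA was extracted with TRIzol, and the TruSeq v2 kit was used for libraries, which were read on an Illumina HiSeq. Per the labels, STAR 2.4.1d, Partek and hg38 were used, and the paper's methods state quantification on Ensembl genes with an Expectation-Maximization algorithm. The authors deposited CPM of 59074 genes by symbol, in which a gene without reads is listed at 0.0001. The values of the U251 libraries sum to 67.2% (siControl) and 55.9% (siHOTAIRM1) of the full scale.

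What 1 read is worth in CPM was read off the spacing of low values. Of values under 1 CPM, 86.7 and 86.6% were whole reads within 0.05, so no count test was run. Depth was 52.2 and 101 M reads, and 3 reads (0.0574 and 0.0296 CPM) were taken as the floor. The change of a gene is log2(CPM + 1) in siHOTAIRM1 less that in siControl, less the median of this value over genes averaging 1 CPM or more (-0.05 in U251). On this scale the change of low genes is understated. LN-229 and T98G were treated the same way with their own minimum and median.

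The gene lists (82) and members were chosen with earlier results of these data known. Genes were named by a rule: the paper's genes; the 15 largest rises and falls of protein-coding and lncRNA genes at 10 CPM or more; the largest changes within a list; the 8 most abundant small RNAs in siControl; genes past 1 in U251 and within 0.25 of 0 elsewhere; and genes past 0.75 in opposite directions in another line. Symbols were matched to GENCODE v44 (34592, of which 1826 by an older symbol). Promoters are from RefSeq on GRCh38.p14, with 300-base windows searched. The script that computes the changes was checked on simulated data with known folds, which is no test of the changes themselves. Python 3.11.15, numpy and pandas were used.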

Additional observations from a re-analysis of the deposited data

Results flagged for a closer look

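These results went in opposite directions in U251 and another line. With 1 library per condition in each line, none of these differences was tested. 7SL RNA had a median change of -0.75 in U251 and 0.18 in LN-229, with -0.23 in T98G. 7SK RNA had a change of -1.15 in U251 and 0.26 in LN-229, with -0.03 in T98G. C/D box snoRNAs had a median of -0.95 in U251 and 0.10 in T98G, a value near 0, with members there from -0.12 to 0.35. Their median in LN-229 was 0.01. HIST2H3D had a change of -1.44 in U251 and 0.69 in LN-229. CH507-513H4.4, a gene named by clone and not matched to the annotation, measured 83.8 CPM in U251 siControl and 11.4 CPM in U251 siHOTAIRM1, a change of -2.73, beside -1.13 in LN-229 and 6.15 in T98G.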

How the results depend on the processing

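No library could be left out, and no paired analysis was possible because each line has 1 library per condition. With a pseudocount of 0.1, 236 genes were at or over 1 and 293 at or under -1, against 88 and 182. Rescaled without the small RNAs and histone genes, 131 were at or over 1 and 232 at or under -1. The medians were then -0.63 for the cytosolic ribosome, -1.01 for complex IV, 0.84 for the hypoxia response and -1.02 for metallothioneins and zinc. This setting scales each library by 1 factor and centres again, so a change can move only through the pseudocount. It is therefore no test of the part of the small RNA share. With the trend with transcript length removed, 98 were at or under -1, and the medians were -0.49 for the cytosolic ribosome, -0.70 for complex IV, -0.40 for clustered histone genes and -0.81 for metallothioneins and zinc. With no filter the medians were -0.71 for the cytosolic ribosome, -1.07 for complex IV, 0.68 for the hypoxia response and -0.80 for metallothioneins and zinc, and that of 5S and 5.8S rRNA turned from 0.95 to -0.03. Without centring, which leaves the median of -0.05 in each change, the cytosolic ribosome was at -0.69 and glycolysis at 0.25. With upper quartile scaling, which replaces the centring by 1 factor per library, they were at -0.60 and 0.33. Metallothioneins and zinc were at -1.04 with the pseudocount of 0.1. Apart from the changes of scale, the cause of the shifts was not tested. Summed with their processed pseudogenes, 55 ribosomal protein genes were at or under -0.5. HOTAIRM1 gave no value with the 5 CPM minimum or the length trend, being below the minimum.

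As a share of the full CPM scale, small RNAs were 14% in U251 siControl, 7.31% in U251 siHOTAIRM1, 5.74 and 6.58% in LN-229, and 5.56 and 4.41% in T98G. With a wider definition chosen after seeing the data, they were 23, 14, 13.1, 14.6, 12.2 and 11.4% of the listed CPM in the same order. The alternative settings gave 494 values for the medians of 71 other lists. Of these values, 397 moved by no more than the median counting half-width of the list's single genes, 96 by more and 1 reversed. That half-width is not the error of a list median. For 52 named genes, 274 of 362 values moved by no more than the gene's own half-width and 88 by more.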
